A study of Homo sapiens with 12 samples.

Results

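The effect of the focal adhesion kinase (FAK) inhibitor IN10018, given alone, was measured by RNA-seq in NUGC-4 cells. NUGC-4 is an established human cell line of diffuse gastric cancer, labelled wild type. The 3 libraries treated with 1 µM IN10018 for 24 h were compared with the 3 control libraries of 24 h, which makes 6 of the 12 libraries of the series. The other 6 libraries received 1 µM crizotinib, an inhibitor of the receptor kinases ALK, MET and ROS1, with IN10018 (combination) or without it, also for 24 h, and they enter only the last comparison below. The series concerns joint inhibition of FAK and ROS1 in cancers that lack E-cadherin (CDH1). The labels used here do not give what the control cells received. Nor do they state if the replicate libraries stem from different cultures, so the tests rest on library-to-library spread alone, which may be technical.

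FAK, encoded by PTK2, is a tyrosine kinase that sits at the contacts between integrins and the extracellular matrix. Once integrins bind matrix, FAK phosphorylates itself, recruits SRC family kinases and passes the signal through adaptors to the RAS and ERK cascade, to PI3 kinase and to the GTPases that shape the actin cytoskeleton. ERK and actin signals act on SRF, AP-1 and YAP with TEAD, factors that drive fast inducible genes and matrix genes. IN10018 acts on the kinase activity of the protein, which RNA counts do not measure.

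Levels are given in CPM, which here means reads scaled to each library's total and TMM factor. Total reads ran from 14908752 to 20059012 with IN10018 and from 14361383 to 20489708 in control. The libraries separated by group along the first principal component (49.0% of the variance), where control library 2 lay nearest to the IN10018 libraries (scores of 20.4, 26.8 and 12.04 with IN10018 and -26.9, -4.8 and -27.5 in control). Mitochondrially encoded genes took 12.3, 12.7 and 11.5% of the reads with IN10018 and 11.2, 10.997 and 11.9% in control. Of 12 gastric epithelial markers, the keratin KRT18 was read at 537 ± 15.3 CPM with IN10018 and 585 ± 17.5 CPM in control (SD, n = 3 each), KRT7 at 192 ± 5.68 CPM with IN10018 and 206 ± 1.602 CPM in control (SD, n = 3 each) and the epithelial adhesion gene EPCAM at 15.6 ± 0.868 CPM with IN10018 and 17.7 ± 2.52 CPM in control (SD, n = 3 each). KRT8 had 1162 ± 62.8 CPM with IN10018 and 1320.2 ± 38.9 CPM in control (SD, n = 3 each) and changed by -0.18 ± 0.05 (edgeR adjusted p = 0.016). KRT19, CDH17 and MUC5AC had 0 reads in all 6 libraries (counting error allows up to 0.0583 CPM with IN10018 and 0.0577 CPM in control), and CLDN18, KRT20, TFF1 and VIL1 had 0, 4, 6 and 10 reads with IN10018 and 1, 1, 9 and 12 in control. A description label mentions adipogenic differentiation, and the adipocyte genes ADIPOQ, LEP and LPL had 0 reads while FABP4 had 63.2 ± 4.25 CPM with IN10018 and 67.7 ± 3.88 CPM in control (SD, n = 3 each) and PPARG 36.1 ± 1.24 CPM with IN10018 and 37.2 ± 1.02 CPM in control (SD, n = 3 each). Of 14 adipocyte genes listed, 8 had enough reads to be tested, and 1 of these was called lower (12.5%, against 5.58% of all genes tested), by 0.78 on the log2 scale. Among mesenchymal genes, VIM had 305 ± 9.39 CPM with IN10018 and 312 ± 9.696 CPM in control (SD, n = 3 each) and COL3A1 5387 ± 459 CPM with IN10018 and 5737 ± 265 CPM in control (SD, n = 3 each). COL1A1 had 1.36 ± 0.08997 CPM with IN10018 and 1.03 ± 0.385 CPM in control (SD, n = 3 each), and COL1A2, FAP and THY1 had 4, 0 and 2 reads with IN10018 and 1, 0 and 0 in control. Of 11 fibroblast and mesenchymal genes listed, 8 had enough reads to be tested, and 0 were called (against 13.9% of all genes tested). Several markers of gastric epithelium were absent from libraries labelled as a gastric cancer line. The pan-leukocyte gene PTPRC had 5 reads with IN10018 and 8 in control. In RNA from a whole culture, fewer cells of a kind and less RNA per cell cannot be told apart.

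Of 15750 genes tested, 1314 were higher (8.34%) and 879 lower (5.58%) with IN10018, which is 13.9% in all (edgeR quasi-likelihood test, Benjamini-Hochberg adjusted p under 0.05). The 2 directions differed in level and in gene class. Higher genes had a median level of 3.40 log2 CPM, against 3.93 for genes not called and 6.32 for lower genes. Of the 15750 genes tested, 12161 were protein-coding. Of the higher genes 57.0% were protein-coding and 27.9% long non-coding, and the median change of the higher genes was 0.52 on the log2 scale. Lower genes were nearly all protein-coding (97.7%), with a median change of 0.20 in size. Among the large falls, many were of transcription factors and regulators that cells switch on within minutes of a stimulus. Changes of at least 2-fold numbered 254 higher and 38 lower (1.85% of the genes tested). The median change over all genes tested was 0.00.

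**Figure D1:**
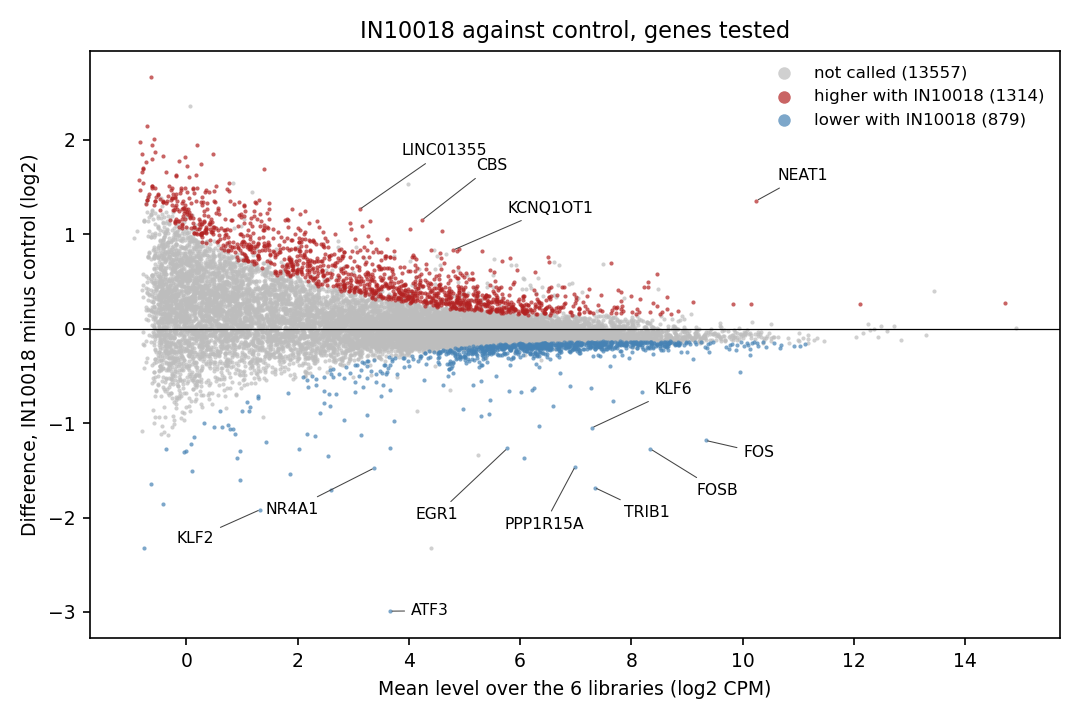
Change with IN10018 against control (log2, vertical axis) by mean level over the 6 libraries (log2 CPM, horizontal axis) for the 15750 genes tested, each point a gene. The 879 lower genes (blue) lie mostly at high levels with small changes, apart from a group led by ATF3, KLF2, TRIB1 and PPP1R15A. The 1314 higher genes (red) have a median level of 3.40 log2 CPM, against 3.93 for genes not called.

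The counts depended on the libraries and on the scaling more than the changes of the leading genes did. Leaving out control library 1, 2 or 3 gave 512, 2008 or 537 higher and 276, 1517 or 365 lower genes. Leaving out IN10018 library 1, 2 or 3 gave 713, 539 or 1534 higher and 424, 278 or 1254 lower. Scaling to library totals gave 1353 higher and 480 lower, TMM on protein-coding genes 1443 and 609, and an offset for GC content and length 1098 and 2166. A fit of all 12 libraries, in which the crizotinib and combination libraries raised the estimate of spread (common biological coefficient of variation of 0.139, against 0.0475 in 6 libraries), called 59 higher and 27 lower.

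Many of the large falls were those of immediate early genes, which need no new protein to be induced and decay fast once signalling stops. Of 42 such transcription factors and regulators tested, 23 fell, 0 rose and 19 were not called, with a median change of -0.39 against 0.00 over all genes tested. That is 54.8% lower, against 5.58% of all genes tested. This list and those below were chosen with earlier results of these data known, so their shares are descriptions and not independent tests. The shares are set against all genes tested and were not matched for level. Of protein-coding genes in the highest of 4 bins of mean level, 15.95% were lower. Several of the 42 immediate early genes carry well-known response elements just upstream of their start. The RefSeq stretches below (GRCh38.p14) are shown because such elements are what ERK, stress and cAMP signals act on. The genes shown were picked as examples, and the share of the 42 genes with each element was not counted. The stretches read 5′ to 3′ on the gene's strand and end at or before the base next to the start of transcription, with the matched elements in capitals. The capitals in EGR1 (chr5:138465359-138465478, plus strand) mark 2 CArG boxes, the motif that SRF binds. Those in FOS (chr14:75278708-75278773, plus strand) and FOSB (chr19:45467876-45467994, plus strand) mark TGACG, the core shared by CREB and ATF sites. Those in PPP1R15A (chr19:48872301-48872391, plus strand) and JUND (chr19:18281623-18281852, minus strand) mark the full cAMP response element TGACGTCA, which contains TGACG.
EGR1: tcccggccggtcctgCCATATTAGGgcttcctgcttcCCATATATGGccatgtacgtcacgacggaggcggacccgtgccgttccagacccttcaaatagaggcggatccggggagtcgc
FOS: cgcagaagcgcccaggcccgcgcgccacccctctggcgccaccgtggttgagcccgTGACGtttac
FOSB: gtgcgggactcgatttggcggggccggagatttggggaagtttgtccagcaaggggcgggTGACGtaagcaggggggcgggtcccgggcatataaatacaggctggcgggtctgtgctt
PPP1R15A: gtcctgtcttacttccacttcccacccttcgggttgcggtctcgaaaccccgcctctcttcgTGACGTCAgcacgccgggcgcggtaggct
JUND: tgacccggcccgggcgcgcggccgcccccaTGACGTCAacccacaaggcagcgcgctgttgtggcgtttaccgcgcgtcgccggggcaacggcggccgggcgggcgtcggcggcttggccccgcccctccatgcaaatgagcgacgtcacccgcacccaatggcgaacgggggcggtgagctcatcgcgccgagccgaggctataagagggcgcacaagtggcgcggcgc
A CArG box on either strand occurred in the 250 bases upstream of 1.16% of the 35116 RefSeq windows, TGACGTCA in 1.65% and TGACG in 21.2%. Of 9783 tested protein-coding genes with a matched window, 3.43% held TGACGTCA, and of 701 lower genes 5.28% (37 genes). A CArG box was found in 1.57% of the lower genes and in 1.53% of those tested, and TGACG in 37.4% and 36.0%. The sequence TATAA, the core of the TATA box, was searched on the gene's strand and was present in 15 of 51 protein-coding genes that were at least 1.5-fold lower (29.4%), against 10.2% of those tested. These are descriptions of the letters in the windows, and no binding was measured.

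ATF3 (ENSG00000162772, chromosome 1, 212565334 to 212620777), a factor of the ATF and CREB family that stress and mitogens induce, had 3.31, 2.52 and 2.598 CPM with IN10018, against 19.7, 25.3 and 21.7 CPM in control. Every IN10018 library lay far below every control library. The change was -2.99 ± 0.13 (approximate SE) on the log2 scale (edgeR adjusted p = 2.0e-15). Another of these genes was TRIB1 (ENSG00000173334, chromosome 8, 125430321 to 125438405), a Tribbles family scaffold without kinase activity of its own, which had 77.5, 72.6 and 81.3 CPM with IN10018, against 211, 260.4 and 269 CPM in control. Its groups were far apart too, with a change of -1.68 ± 0.09 (edgeR adjusted p = 2.3e-05). Among the Krüppel-like factors, KLF2, KLF4 and KLF6 were in the list and fell. KLF2 (ENSG00000127528, chromosome 19, 16324817 to 16327874), which in endothelium answers to fluid flow, had 1.56, 0.789 and 0.666 CPM with IN10018, against 4.25, 3.999 and 3.26 CPM in control, a change of -1.92 ± 0.26 (edgeR adjusted p = 1.9e-05). KLF4 (ENSG00000136826, chromosome 9, 107484852 to 107490482), a differentiation factor of epithelia, had 2.16, 1.48 and 1.87 CPM with IN10018, against 6.16, 4.17 and 5.62 CPM in control. It changed by -1.54 ± 0.21 (edgeR adjusted p = 1.5e-05). KLF6 (ENSG00000067082, chromosome 10, 3775996 to 3785281) had 103, 96.7 and 106 CPM with IN10018, against 187, 218 and 227 CPM in control, a tight pair of groups with a change of -1.05 ± 0.06 (edgeR adjusted p = 7.7e-10).

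The orphan nuclear receptors NR4A1 and NR4A2 bind DNA without a known natural ligand and are induced by growth factors and stress. NR4A1 (ENSG00000123358, chromosome 12, 52022832 to 52059507) had 5.23, 5.13 and 5.995 CPM with IN10018, against 12.03, 19.2 and 13.9 CPM in control, and NR4A2 (ENSG00000153234, chromosome 2, 156324432 to 156342348) had 38.9, 35.5 and 38.4 CPM with IN10018, against 80.1, 116 and 93.3 CPM in control. Control library 2 was the highest for both genes, and no IN10018 library reached the lowest control. NR4A1 changed by -1.48 ± 0.15 (edgeR adjusted p = 4.6e-06) and NR4A2 by -1.37 ± 0.16 (edgeR adjusted p = 0.0089), the NR4A2 call being lost without IN10018 library 2 (-1.32). PPP1R15A (ENSG00000087074, chromosome 19, 48872392 to 48876057), also GADD34, which guides protein phosphatase 1 to the translation factor eIF2 alpha, had 73.05, 66.8 and 63.2 CPM with IN10018, against 161, 194 and 203 CPM in control. Its groups were widely separated, with a change of -1.46 ± 0.09 (edgeR adjusted p = 1.9e-05).

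Members of AP-1, the dimer of FOS and JUN proteins, did not move alike. FOS (ENSG00000170345, chromosome 14, 75278774 to 75282230) had 419, 366 and 400.1 CPM with IN10018, against 774, 928 and 988 CPM in control, and FOSB (ENSG00000125740, chromosome 19, 45467995 to 45475179) had 205, 181 and 185 CPM with IN10018, against 349, 543 and 485 CPM in control. The IN10018 libraries were close to each other and the control libraries were spread over a wider range above them. FOS changed by -1.18 ± 0.09 (edgeR adjusted p = 0.00011) and FOSB by -1.27 ± 0.19 (edgeR adjusted p = 0.024), with the FOSB call lost without control library 3 or IN10018 library 1, 2 or 3 (-1.34 to -1.23) and with a replicate block (-1.26). JUND (ENSG00000130522, chromosome 19, 18279760 to 18281622), the JUN member present in resting cells, had 56.3, 52.5 and 50.96 CPM with IN10018, against 112, 109.9 and 105 CPM in control. Its libraries were tight in both groups, and the change was -1.03 ± 0.05 (edgeR adjusted p = 5.2e-14). JUNB changed by -0.85 ± 0.17 (edgeR adjusted p = 0.029; lost without IN10018 library 1, 2 or 3, at -0.92 to -0.75). JUN itself differed by -1.33 ± 0.28 and was not called (edgeR adjusted p = 0.051), with control values of 41.1, 49.3 and 69.7 CPM; it was called without control library 3 (-1.08) and in 8 other alternatives, DESeq2 and the 12-library fit among them. FOSL2 differed by -0.08 ± 0.04 (edgeR adjusted p = 0.21) and MYC by -0.06 ± 0.05 (edgeR adjusted p = 0.43). The zinc finger factor EGR1 (ENSG00000120738, chromosome 5, 138465490 to 138469315), a classic SRF target, had 31.7, 29.9 and 34.5 CPM with IN10018, against 60.1, 73.5 and 95.3 CPM in control. All 3 control libraries lay above the IN10018 libraries but far from each other, and the change of -1.27 ± 0.21 (edgeR adjusted p = 0.028) was no longer called without control library 2 or IN10018 library 1, 2 or 3 (-1.33 to -1.22), nor with no low-count filter (-1.28).

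**Figure D2:**
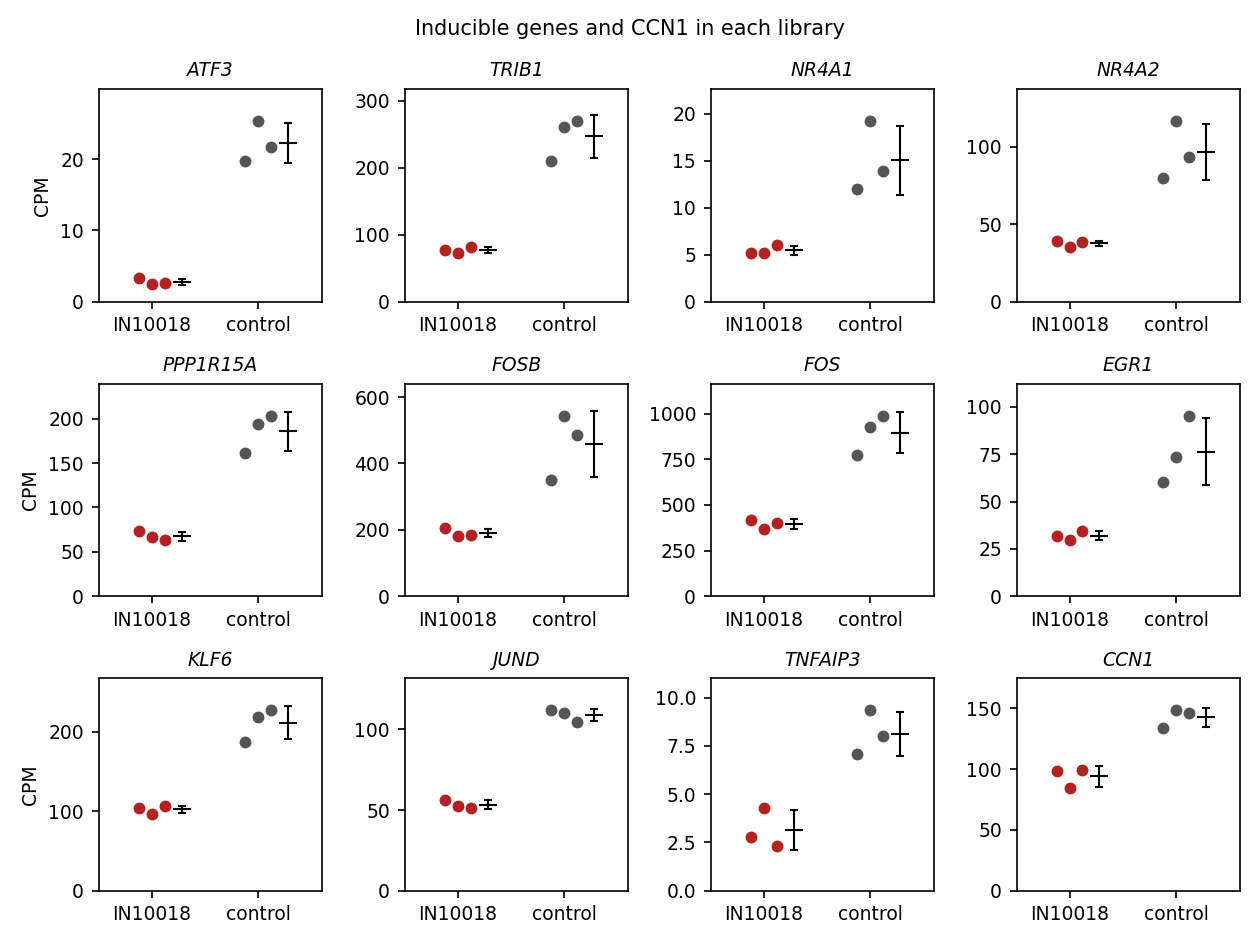
Levels (CPM) of 11 inducible genes and the matrix gene CCN1 in each of the 3 IN10018 (red) and 3 control (grey) libraries, with the mean and SD (bars) beside them; every vertical axis starts at 0 and has its own scale. No IN10018 library overlaps a control library in these 12 genes, and the control libraries are more spread for EGR1 and FOSB than for JUND.

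Smaller falls in the same list were those of the coactivator CITED2 (-0.90 ± 0.06), the kinase gene SGK1 (-0.46 ± 0.05) and ZFP36L1 (-0.39 ± 0.05), whose protein promotes decay of AU-rich messages. The edgeR adjusted p-values of these 3 genes were 7.7e-11, 3.9e-07 and 4.3e-06. CSRNP1, an inducible nuclear factor outside the list, fell by 0.98 on the log2 scale (edgeR adjusted p = 4.9e-06). The libraries of the 2 groups did not overlap for any of these 4 genes. The list's count of lower genes ranged from 17 to 23 when each library was left out in turn and was 14 in the 12-library fit.

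Genes that answer to ERK signalling fell in part. Of 25 tested, 7 fell (28%, against 5.58% of all genes tested), 0 rose and 18 were not called (median -0.15). The falls were 12 without control library 2, 4 without control library 3 and 11 with the offset for GC content and length. DUSP1 (ENSG00000120129, chromosome 5, 172768090 to 172771195), a phosphatase that switches off MAP kinases, had 147, 139.7 and 166 CPM with IN10018, against 231, 252 and 287 CPM in control. Its groups did not overlap, and it changed by -0.77 ± 0.09 (edgeR adjusted p = 0.001). DUSP6, the cytoplasmic phosphatase specific for ERK, had 235, 232 and 220.0 CPM with IN10018, against 241, 231 and 267 CPM in control, values that overlapped, with a difference of -0.10 ± 0.05 (edgeR adjusted p = 0.17) that was called without control library 2 (-0.16). DUSP5, its nuclear counterpart, changed by -0.25 ± 0.05 (edgeR adjusted p = 0.0028). The EGF receptor ligands HBEGF and EREG changed by -0.62 ± 0.18 and -0.17 ± 0.05 (edgeR adjusted p = 0.018 and 0.015). HBEGF was not called with DESeq2 (-0.64) or without control library 3 or IN10018 library 2 or 3 (-0.67 to -0.50), nor EREG without control library 1 or IN10018 library 1 (-0.17). The ephrin receptor gene EPHA2 had 70.9 ± 5.199 CPM with IN10018 and 83.9 ± 1.34 CPM in control (SD, n = 3 each), a change of -0.25 ± 0.05 (edgeR adjusted p = 0.0033).

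NF-kB targets with inducible kinetics also fell in part. Of 23 genes of the pathway and its chemokines, 7 fell (30.4%, against 5.58% of all genes tested) and 0 rose (median -0.13). TNFAIP3 (ENSG00000118503, chromosome 6, 137867188 to 137883312), the A20 enzyme that limits NF-kB signalling, had 2.77, 4.29 and 2.33 CPM with IN10018, against 7.08, 9.33 and 7.98 CPM in control. The IN10018 libraries lay below all control libraries, with a change of -1.35 ± 0.18 (edgeR adjusted p = 2.3e-05). NFKBIA, the inhibitor that holds NF-kB in the cytoplasm, had 56.8, 59.5 and 63.4 CPM with IN10018, against 80.1, 98.1 and 98.5 CPM in control, a change of -0.63 ± 0.07 (edgeR adjusted p = 2.6e-05). NFKBIZ and the cytokine gene IL6 changed by -0.59 ± 0.12 and -0.46 ± 0.09 (edgeR adjusted p = 0.0012 and 0.0017). The neutrophil chemokine CXCL2 changed by -0.92 ± 0.19 (edgeR adjusted p = 0.011), a call lost without IN10018 library 2 or 3 (-0.90 to -0.87), and CXCL8 by -0.25 ± 0.07 (edgeR adjusted p = 0.024), a call lost without control library 1 or 3 or IN10018 library 1 (-0.28 to -0.19) and with scaling to library totals (-0.22) or DESeq2 (-0.27), while the GC and length offset gave -0.46.

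Targets of YAP and TEAD fell in part and 2 of them rose. Of 23 tested, 8 fell (34.8%, against 5.58% of all genes tested), 2 rose and 13 were not called (median -0.12), and 5 fell without control library 1 or IN10018 library 2. The upstream stretch of CCN2 (chr6:131951374-131951552, minus strand, RefSeq, GRCh38.p14) is shown because it holds 3 copies of the TEAD motif GGAATG, in capitals. This motif occurred on either strand in 11.9% of all RefSeq windows. Counted by gene, it was found in 12.9% of tested protein-coding genes, 10.3% of the lower ones and 3.92% of those at least 1.5-fold lower.
CCN2: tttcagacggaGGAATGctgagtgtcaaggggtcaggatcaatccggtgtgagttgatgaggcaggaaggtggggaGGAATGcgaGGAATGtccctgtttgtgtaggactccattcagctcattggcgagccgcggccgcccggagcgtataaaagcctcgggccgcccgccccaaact
CCN2 (ENSG00000118523, chromosome 6, 131948176 to 131951373), a secreted matricellular protein gene and a standard readout of YAP, was weakly expressed, with 0.2405, 0.197 and 0.333 CPM with IN10018, against 0.9202, 0.753 and 0.753 CPM in control. The groups did not overlap, and the change was -1.65 ± 0.44 (edgeR adjusted p = 0.014), a call lost without control library 1 or 3 or IN10018 library 1 or 2 (-1.70 to -1.47). CCN1 (ENSG00000142871, chromosome 1, 85580761 to 85583962), its relative, had 98.7, 84.2 and 99.7 CPM with IN10018, against 133, 148 and 146 CPM in control. It was read in far more reads, and its change of -0.60 ± 0.06 (edgeR adjusted p = 8.0e-07) was called in each fit that left out a library. EMP1, a membrane protein gene, changed by -0.67 ± 0.06 (edgeR adjusted p = 2.6e-08), and FJX1 by -0.28 ± 0.07 (edgeR adjusted p = 0.0073; lost without control library 1, at -0.23). GADD45B and ARHGEF17 were the 2 that rose, GADD45B by 0.44 ± 0.12 (edgeR adjusted p = 0.015), which was lost without control library 1 or IN10018 library 1 or 2 (0.40 to 0.46) and with DESeq2 (0.42).

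In the core of the Hippo pathway, which restrains YAP, 7 of 24 genes fell (29.2%, against 5.58% of all genes tested) and 1 rose, all by small amounts (median -0.13). With control library 1, IN10018 library 1 or IN10018 library 2 left out 3 fell, and with control library 3 left out 4. The kinase gene LATS2, itself a YAP target, had 68.5, 62.996 and 69.01 CPM with IN10018, against 86.99, 80.9 and 81.3 CPM in control, a change of -0.31 ± 0.05 (edgeR adjusted p = 0.0003). The scaffold gene AMOTL2 changed by -0.21 ± 0.06 (edgeR adjusted p = 0.014; lost without control library 3 or IN10018 library 1 or 2, at -0.21 to -0.19), and the TEAD cofactor gene VGLL3 by -0.22 ± 0.05 (edgeR adjusted p = 0.0033). TAOK2 was the gene that rose. YAP1 had 71.5, 71.1 and 70.1 CPM with IN10018, against 77.8, 72.1 and 73.9 CPM in control, a difference of -0.07 ± 0.05 that was not called (edgeR adjusted p = 0.37). Among 20 targets of SRF and its actin-sensing MRTF cofactors, 8 fell (40.0%, against 5.58% of all genes tested) and 1 rose (median -0.10). When control library 1, control library 3 or IN10018 library 1 was left out 3 fell, and for IN10018 library 2 only 2. The falls comprised the inducible genes EGR1 and FOS, CCN1 and CCN2, and the cytoskeletal genes FLNA, MYH9, ACTB and ACTG1. The gene that rose was TAGLN, a smooth muscle actin-binding protein gene.

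**Figure D3:**
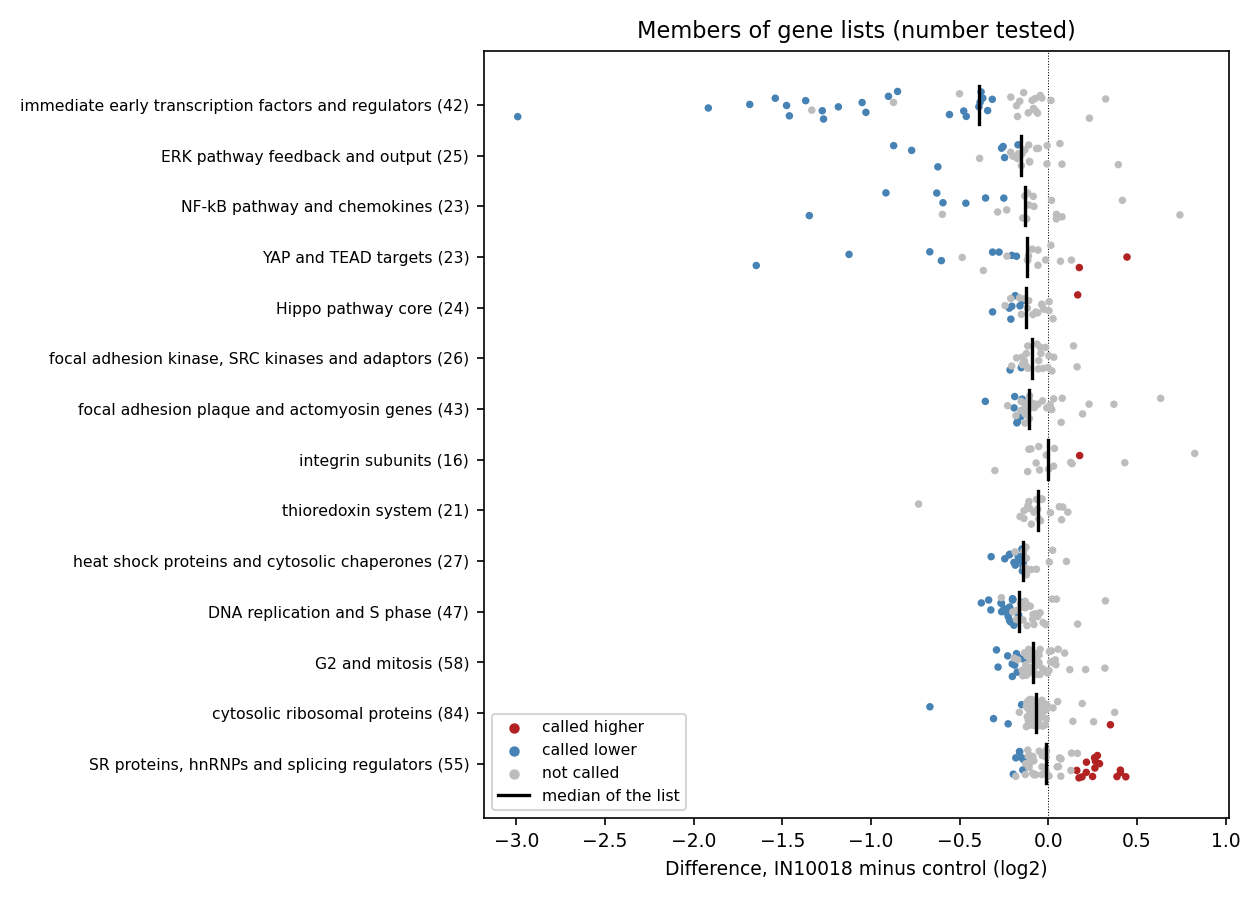
Change with IN10018 against control (log2, horizontal axis) of each tested member of 14 gene lists, with the number tested in brackets; red and blue points are genes called higher and lower, grey points are not called, and the black bar is the median of the list. The immediate early list reaches furthest to the left (ATF3, -2.99), the adhesion, chaperone and cell cycle lists lie in a narrow band just below 0, and the splicing list holds 15 red points.

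The RNA of the drug's own target was not called, and few genes of its kinase partners, adaptors and integrins were. PTK2 (ENSG00000169398, chromosome 8, 140657900 to 141002216), the gene of FAK, had 329, 325 and 335 CPM with IN10018, against 337, 335 and 337 CPM in control. The groups overlapped, and the difference was -0.03 ± 0.04 (edgeR adjusted p = 0.69). Of 26 genes of FAK, SRC kinases and their adaptors, 2 fell (7.69%, against 5.58% of all genes tested) and 0 rose (median -0.09). With the GC and length offset 11 were called lower. The 2 falls were the adaptor GRB2 (-0.22 ± 0.05, edgeR adjusted p = 0.0063; lost without control library 3 or IN10018 library 2, at -0.18 to -0.17) and the phosphatase PTPN11, also SHP2 (-0.15 ± 0.05, edgeR adjusted p = 0.04; lost without control library 1 or 3 or IN10018 library 1 or 2, at -0.17 to -0.10 and with scaling to library totals, -0.12). The falls numbered 10 when control library 2 was left out and 6 for IN10018 library 3, 1 for control library 1 or IN10018 library 1, and 0 for control library 3 or IN10018 library 2. Among 16 integrin subunits 1 was called, a rise (6.25%, against 8.34% of all genes tested). It was ITGB4, the hemidesmosome subunit, with 271, 255 and 295 CPM with IN10018, against 245, 243 and 238 CPM in control and a change of 0.18 ± 0.05 (edgeR adjusted p = 0.018). That call was lost without control library 1 or 3 or IN10018 library 1 or 3 (0.12 to 0.18), and with an offset for GC content and length (0.10) or DESeq2 (0.16).

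Plaque and actomyosin genes had 8 falls and 0 rises among 43 (18.6% lower against 5.58% of all genes tested, median -0.11). That count fell to 0 when control library 1 or IN10018 library 2 was left out, to 2 for control library 3 and to 4 for IN10018 library 1, and it was 21 for control library 2, 13 for IN10018 library 3, 5 with scaling to library totals and 20 with the GC and length offset. TLN2, a talin that links integrins to actin, changed by -0.36 ± 0.09 (edgeR adjusted p = 0.009; lost without control library 1 or IN10018 library 2, at -0.32 to -0.26). The actin crosslinker FLNA had 773, 719 and 836 CPM with IN10018, against 911, 855 and 895 CPM in control, and beta-actin, ACTB, had 1555, 1496 and 1617 CPM with IN10018, against 1790.2, 1678 and 1796 CPM in control. The shifts were small beside the levels, with FLNA at -0.19 ± 0.05 (-0.30 with the GC and length offset; edgeR adjusted p = 0.015; lost without control library 1 or 3 or IN10018 library 1 or 2, at -0.20 to -0.14) and ACTB at -0.17 ± 0.05 (edgeR adjusted p = 0.023; lost without control library 1 or 3 or IN10018 library 1 or 2, at -0.18 to -0.14). Profilin, PFN1, changed by -0.19 ± 0.05 (edgeR adjusted p = 0.01; lost without control library 1 or IN10018 library 2, at -0.16).

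The other genes of the series title were not called, apart from MET among the drug targets. TXNRD1, the cytosolic thioredoxin reductase, had 379, 375 and 422 CPM with IN10018, against 405, 409 and 430.0 CPM in control. Its groups overlapped, with a difference of -0.08 ± 0.05 (edgeR adjusted p = 0.28). Of 21 genes of the thioredoxin system, 0 rose and 0 fell by edgeR's test (median -0.06), against 8.34% higher and 5.58% lower of all genes tested. At those shares a list this short holds few calls, so a count of 0 says little. An unadjusted p under 0.05 was seen for 2 of the 21. DESeq2 and limma-voom called 0 as well, but 4 were lower with the GC and length offset. With control library 2 or IN10018 library 3 left out, 1 was called lower. TXN, thioredoxin itself, had 104, 109 and 107 CPM with IN10018, against 105, 97.9 and 115 CPM in control, a difference of 0.01 ± 0.05 (edgeR adjusted p = 0.9) whose sign turned with the scaling (-0.21 with an offset for GC content and length). CDH1 (ENSG00000039068, chromosome 16, 68737225 to 68835548), the E-cadherin gene, had 3.25, 3.85 and 3.66 CPM with IN10018, against 5.24, 4.06 and 5.52 CPM in control. The groups did not overlap, and the difference of -0.46 ± 0.17 was not called (edgeR adjusted p = 0.073), although it was called without control library 2 (-0.59) and with the GC and length offset (-0.50). Of 15 cadherins, catenins and mesenchymal regulators, edgeR called 0 (against 13.9% of all genes tested), with 5 at an unadjusted p under 0.05. DESeq2 and limma-voom called 1 of the 15 lower each. When control library 2 was left out 4 were lower, and 3 with the GC and length offset. MET changed by -0.17 ± 0.05 (edgeR adjusted p = 0.025; lost without control library 1 or 3 or IN10018 library 1 or 2, at -0.17 to -0.13). ALK had 3.55 ± 0.206 CPM with IN10018 and 3.79 ± 0.458 CPM in control (SD, n = 3 each), a difference of -0.08 ± 0.18 (edgeR adjusted p = 0.79). ROS1 had 0 reads in all 6 libraries, which allows up to 0.0583 CPM with IN10018 and 0.0577 CPM in control (3 counts over each group, counting error only).

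Part of the cell cycle genes fell, most of them by little. Of 47 genes of DNA replication and S phase, 22 fell and 0 rose (median -0.17; 46.8% lower against 5.58% of all genes tested). With control library 1 left out the count was 12, with IN10018 library 2 left out 10, with each other library left out between 17 and 27, and in the 12-library fit 0. MCM2 (ENSG00000073111, chromosome 3, 127598223 to 127622436), a subunit of the replicative helicase, had 69.2, 61.4 and 73.7 CPM with IN10018, against 89.8, 88.8 and 86.2 CPM in control. No library overlapped between groups, with a change of -0.38 ± 0.06 (edgeR adjusted p = 7.7e-05). The replication licensing factor CDT1 changed by -0.34 ± 0.06 (edgeR adjusted p = 0.00094) and GINS2 of the helicase complex by -0.32 ± 0.07 (edgeR adjusted p = 0.0028). RRM2, the ribonucleotide reductase subunit made in S phase, had 311, 284 and 316 CPM with IN10018, against 376, 359 and 361 CPM in control, a change of -0.27 ± 0.05 (edgeR adjusted p = 0.00066). DTL and the polymerase gene POLA1 changed by -0.26 ± 0.05 and -0.25 ± 0.05 (edgeR adjusted p = 0.0011 and 0.0013). These 6 genes kept their call in each fit that left out a library.

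Of 19 G1 cyclins, kinases and inhibitors, 6 fell (31.6%, against 5.58% of all genes tested) and 1 rose (median -0.13). The falls were 2 when control library 1 or IN10018 library 2 was left out, 3 for control library 3 or with scaling to library totals, and 10 with the GC and length offset. The kinase gene CDK6 had 201, 211 and 206 CPM with IN10018, against 271, 244 and 234 CPM in control, a change of -0.27 ± 0.05 (edgeR adjusted p = 0.00082). E2F2, an activator of S phase genes, changed by -0.38 ± 0.06 (edgeR adjusted p = 0.00024). G2 and mitosis genes had 11 falls and 0 rises among 58 (median -0.09). The falls were 19.0%, against 5.58% of all genes tested and 15.95% of protein-coding genes in the highest of 4 level bins. Leaving out control library 1, control library 3 or IN10018 library 2 brought the count of falls to 4, 5 or 4. With control library 2 left out it was 21, and the GC and length offset gave 22. MYBL2, a regulator of late cell cycle genes, had 190.0, 179.9 and 185 CPM with IN10018, against 235, 224 and 221 CPM in control, a change of -0.29 ± 0.05 (edgeR adjusted p = 0.00015), and CDCA5, which stabilises cohesin, changed by -0.28 ± 0.06 (edgeR adjusted p = 0.0024). Both kept their call in each of these fits. Among 24 replication-dependent histone genes, 0 were called by edgeR, DESeq2 or limma-voom, with 0 at an unadjusted p under 0.05. Of all genes tested, edgeR called 13.9%. With the GC and length offset 1 of the 24 was lower. The histone variant gene H2AX had 29.5, 24.3 and 27.8 CPM with IN10018, against 57.1, 54.7 and 43.4 CPM in control, without overlap, a change of -0.92 ± 0.11 (edgeR adjusted p = 0.00043).

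Chaperones also shifted downward by little. Of 27 heat shock proteins and cytosolic chaperones, 15 fell (55.6%, against 5.58% of all genes tested) and 0 rose (median -0.14). All 15 had changes between -0.32 and 0. This count rested on single libraries and on the scaling, with 4 lower when control library 1 or 3 was left out, 5 for IN10018 library 1, 1 for IN10018 library 2 and 7 with scaling to library totals or TMM on protein-coding genes. HSPH1, a nucleotide exchange factor of HSP70, had 132, 129 and 134 CPM with IN10018, against 151, 147 and 161 CPM in control, a change of -0.22 ± 0.05 (edgeR adjusted p = 0.0031). The HSP40 gene DNAJB1 changed by -0.22 ± 0.05 (edgeR adjusted p = 0.0056; lost without IN10018 library 2, at -0.17) and the constitutive HSP70 gene HSPA8 by -0.19 ± 0.05 (edgeR adjusted p = 0.02; lost without control library 1 or 3 or IN10018 library 1 or 2, at -0.22 to -0.13). In the unfolded protein response, 5 of 26 genes fell (19.2%, against 5.58% of all genes tested) and 1 rose (median -0.08). Of these falls 3 were called when control library 1 or 3 or IN10018 library 1 or 2 was left out, and with control library 2 left out or the GC and length offset the falls were 9 or 8. The transcription factor XBP1 had 63.97, 69.01 and 71.4 CPM with IN10018, against 81.2, 84.4 and 84.1 CPM in control, a change of -0.29 ± 0.05 (edgeR adjusted p = 0.00061). Its targets SDF2L1 and DNAJB9, both cofactors of the chaperone BiP, changed by -0.65 ± 0.11 and -0.34 ± 0.07 (edgeR adjusted p = 0.00023 and 0.001). Of 29 targets of the integrated stress response, 6 fell (20.7%, against 5.58% of all genes tested) and 2 rose (median -0.10), with ATF3 and PPP1R15A as the large falls. For this list 2 falls were called when IN10018 library 2 was left out, 3 for control library 1 or 3, and 11 for control library 2 or IN10018 library 3 or with the GC and length offset.

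A few metabolic genes and FOXO targets fell. Fatty acid synthase, FASN, changed by -0.25 ± 0.06 (edgeR adjusted p = 0.0042). In all, 4 of 31 cholesterol and fatty acid synthesis genes fell (12.9%, against 5.58% of all genes tested) and 0 rose (median -0.08). With control library 1 or 3 or IN10018 library 1 or 2 left out, 2 of them were called, and with control library 2 left out 7. Of 20 targets of FOXO factors, 4 fell and 0 rose (median -0.12), against 5.58% lower and 8.34% higher of all genes tested. Of these falls, TRIB1 and CITED2 were also counted in the immediate early list. The others were the muscle ubiquitin ligase FBXO32 (-0.46 ± 0.10, edgeR adjusted p = 0.0042) and PDK4, a kinase that inhibits pyruvate dehydrogenase (-0.41 ± 0.07, edgeR adjusted p = 0.00046). In the circadian clock 3 of 17 genes rose and 3 fell (17.6% each way, against 8.34% higher and 5.58% lower of all genes tested). There was 1 called each way when control library 1 or 3 was left out and 1 rise and 2 falls for IN10018 library 1. PER1, a repressor of the clock that stimuli also induce, had 3.01, 2.61 and 2.73 CPM with IN10018, against 4.46, 7.82 and 5.62 CPM in control, with all IN10018 libraries below the control libraries and a change of -1.11 ± 0.19 (edgeR adjusted p = 0.00038). NPAS2, a partner of BMAL1, had 104, 103 and 98.5 CPM with IN10018, against 78.003, 85.5 and 77.7 CPM in control and rose by 0.34 ± 0.05 (edgeR adjusted p = 7.7e-05). The repressor NFIL3 changed by -0.52 ± 0.13 (edgeR adjusted p = 0.0099; lost without control library 1 or 3, at -0.50 to -0.49).

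Among other large falls, CCDC85B had 2.65, 2.07 and 2.26 CPM with IN10018, against 5.66, 6.49 and 4.72 CPM in control, a change of -1.27 ± 0.19 (edgeR adjusted p = 6.1e-05). FADD, the adaptor of death receptors, had 3.25, 3.11 and 2.798 CPM with IN10018, against 8.28, 7.59 and 4.67 CPM in control. Control library 3 lay nearest to the IN10018 libraries, and the change was -1.14 ± 0.19 (edgeR adjusted p = 0.00038). Cytosolic ribosomal protein genes had 4 falls and 1 rise among 84 (median -0.07). These are 4.76% lower and 1.19% higher, against 5.58% and 8.34% of all genes tested. RPL13 stood out, with 227, 225 and 222 CPM with IN10018, against 366, 378 and 328 CPM in control and a change of -0.67 ± 0.05 (edgeR adjusted p = 3.6e-10). Its processed pseudogene RPL13P12 changed by -1.71 ± 0.18 (edgeR adjusted p = 9.9e-07), and reads of the parent and the copy may have been split by the counting, so both values are uncertain. Lower ribosomal protein genes numbered 13 when control library 2 was left out, 23 for IN10018 library 3, 1 for IN10018 library 2 and 2 for control library 1 or 3, and 24 were lower with the GC and length offset. FTH1, ferritin heavy chain, which has many pseudogenes, had 6.73, 6.96 and 7.53 CPM with IN10018, against 45.1, 47.7 and 14.7 CPM in control. Control library 3 lay well below the other control libraries, and the difference of -2.32 ± 0.60 was not called (edgeR adjusted p = 0.082; called without control library 3, -2.72, and with DESeq2).

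Protein-coding genes with the largest rises were mostly of low level. SRPK3, a muscle kinase of SR proteins, had 3.61, 3.11 and 2.998 CPM with IN10018, against 0.779, 2.14 and 0.904 CPM in control, a change of 1.33 ± 0.28 (edgeR adjusted p = 0.0026). RAB4B, a GTPase of recycling endosomes, and the metalloproteinase MMP21 changed by 1.24 ± 0.24 and 1.21 ± 0.24 (edgeR adjusted p = 0.00099 and 0.0015). CBS (ENSG00000160200, chromosome 21, 43053191 to 43076943), which makes cystathionine from homocysteine, had 29.2, 18.4 and 30.9 CPM with IN10018, against 10.5, 12.8 and 11.6 CPM in control. IN10018 library 2 was the lowest of its group yet above control, and the change of 1.15 ± 0.23 (edgeR adjusted p = 0.033) was lost without control library 1, 2 or 3 or IN10018 library 1 (1.06 to 1.21) and with limma-voom (1.09). ABCB6, a porphyrin transporter, had 5.29, 6.71 and 6.395 CPM with IN10018, against 2.48, 3.999 and 2.06 CPM in control, a change of 1.11 ± 0.20 (edgeR adjusted p = 0.00058). GPM6B, a myelin proteolipid relative, and FLRT1, a cell adhesion protein, changed by 1.15 ± 0.22 and 1.12 ± 0.26 (edgeR adjusted p = 0.00091 and 0.0051; FLRT1 lost without IN10018 library 2, at 0.97). The gastric gland mucin MUC6 (ENSG00000184956, chromosome 11, 1012821 to 1036706) had 5.83, 5.33 and 4.53 CPM with IN10018, against 2.12, 3.19 and 2.16 CPM in control, without overlap and with a change of 1.07 ± 0.19 (edgeR adjusted p = 0.00058). PECAM1, an endothelial and leukocyte adhesion gene, had 9.68, 8.83 and 8.39 CPM with IN10018, against 6.2997, 6.26 and 5.98 CPM in control, a change of 0.54 ± 0.13 (edgeR adjusted p = 0.0056).

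Some well-expressed genes rose by less. The drug exporter ABCC3 had 322, 312 and 318 CPM with IN10018, against 241, 280.3 and 244 CPM in control, a change of 0.31 ± 0.05 (edgeR adjusted p = 0.00024). MST1R, also RON, a receptor kinase related to MET, changed by 0.29 ± 0.07 (edgeR adjusted p = 0.0054; lost without control library 3, at 0.24). The laminin chain LAMB2 changed by 0.23 ± 0.05 (edgeR adjusted p = 0.0019). In the list of collagens, laminins and matrix remodelling 4 of 31 genes rose and 4 fell (median -0.05). That is 12.9% each way, against 8.34% higher and 5.58% lower of all genes tested. When libraries were left out in turn, 1 to 4 of them rose and 2 to 8 fell, the fewest rises coming with control library 1 or IN10018 library 2 left out and the most falls with control library 2 left out; the GC and length offset gave 1 rise and 7 falls.

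Splicing regulators held rises and falls side by side. Of 55 SR proteins, hnRNPs and related genes, 15 rose and 7 fell (27.3% higher against 8.34% of all genes tested; median -0.01, turning to 0.02 with scaling to library totals). The rises were 6 when control library 1, control library 3 or IN10018 library 2 was left out, and 0 in the 12-library fit. The falls were 2 for control library 1, 1 for control library 3, IN10018 library 1 or IN10018 library 2, 11 for control library 2, 3 with scaling to library totals and 14 with the GC and length offset. LUC7L3 (ENSG00000108848, chromosome 17, 50719544 to 50756213), a U1 snRNP associated factor, had 355, 391 and 340.2 CPM with IN10018, against 258, 279.9 and 264 CPM in control. Its libraries did not overlap, with a change of 0.44 ± 0.05 (edgeR adjusted p = 2.1e-06). PNISR, an SR-like protein gene, changed by 0.41 ± 0.06 (edgeR adjusted p = 5.4e-05), and CLK2, a kinase of SR proteins, by 0.39 ± 0.07 (edgeR adjusted p = 0.00084). The helicase DDX17 had 598, 609 and 602 CPM with IN10018, against 499, 514 and 481 CPM in control, a change of 0.28 ± 0.05 (edgeR adjusted p = 0.00027). TRA2B, a splicing activator, was among the falls, with 164, 164 and 156 CPM with IN10018, against 185, 185 and 185 CPM in control and a change of -0.20 ± 0.05 (edgeR adjusted p = 0.0049).

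KRAB and other zinc finger genes, many of them repressors of transposons, had 60 rises and 11 falls among 392 (15.3% higher against 8.34% of all genes tested; median 0.09). Between 26 (without IN10018 library 2) and 83 (without control library 2) were higher when each library was left out, with 30 for control library 1 or 3, 37 for IN10018 library 1 and 78 for IN10018 library 3, and 20 were lower with the GC and length offset. ZNF514 had 75.8, 77.3 and 69.1 CPM with IN10018, against 46.4, 54.01 and 44.2 CPM in control, a change of 0.62 ± 0.07 (edgeR adjusted p = 1.6e-06). ZNF141 and ZNF234 changed by 0.56 ± 0.07 and 0.75 ± 0.11 (edgeR adjusted p = 8.4e-06 and 3.3e-05). ZNF207, which acts at kinetochores, had 346, 366 and 324 CPM with IN10018, against 258, 274 and 231 CPM in control, a change of 0.44 ± 0.06 (edgeR adjusted p = 2.9e-05). ZNF428 went the other way, with 6.37, 8.24 and 7.39 CPM with IN10018, against 19.4, 17.97 and 16.2 CPM in control and a change of -1.27 ± 0.11 (edgeR adjusted p = 9.4e-09). Of 44 histone lysine methyltransferases and demethylases, 2 rose (4.55%, against 8.34% of all genes tested) and 1 fell (2.27%, against 5.58%). With the GC and length offset 5 fell. EZH1, a Polycomb methyltransferase, changed by 0.36 ± 0.06 (edgeR adjusted p = 0.00027).

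Long non-coding RNA genes sat higher as a class. Of 2070 tested, 367 were higher (17.7%) and 10 lower (0.483%), with a median change of 0.36, while of 12161 protein-coding genes 749 were higher (6.16%) and 859 lower (7.06%), with a median of -0.03. The class median lay between 0.21 and 0.44 in every alternative run. Leaving out control library 1, 2 or 3 gave 152, 507 or 147 higher long non-coding genes, and leaving out IN10018 library 1, 2 or 3 gave 204, 149 or 418, while 38 were lower with the GC and length offset. Their share of all reads was 2.78, 2.96 and 2.45% with IN10018 and 1.91, 2.28 and 2.03% in control. The share was thus higher in each IN10018 library than in any control library. Pseudogenes had 118 higher and 7 lower among 1021 (11.6% and 0.686%, against 8.34% and 5.58% of all genes tested, median 0.17). By position, 15.99% of 594 long non-coding genes apart from any protein-coding gene were higher, 17.3% of 1095 that overlapped a protein-coding gene on the opposite strand only and 21.8% of 381 that overlapped on the same strand. The libraries were made with a kit that keeps strand, but the strand setting of the counting was not given, and reads of unspliced RNA were not counted apart here.

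NEAT1 (ENSG00000245532, chromosome 11, 65422774 to 65445540), the scaffold of nuclear paraspeckles, had 1832, 1942 and 1470.3 CPM with IN10018, against 622, 861 and 568 CPM in control. Every IN10018 library was well above every control library, and the change of 1.35 ± 0.22 (edgeR adjusted p = 0.028) was lost without control library 1 or 3 or IN10018 library 1 or 2 (1.24 to 1.31) and with no low-count filter (1.35). MALAT1, a nuclear speckle RNA from the neighbouring locus, had 13006, 14051 and 10764 CPM with IN10018, against 8205, 10426 and 10073 CPM in control, and its difference of 0.40 ± 0.12 was not called (edgeR adjusted p = 0.076), although it was without IN10018 library 3 (0.50). KCNQ1OT1 (ENSG00000269821, chromosome 11, 2608328 to 2699994), the imprinted antisense RNA of KCNQ1, had 36.1, 37.9 and 31.6 CPM with IN10018, against 21.2, 17.1 and 21.3 CPM in control. It rose without overlap by 0.83 ± 0.09 (edgeR adjusted p = 4.3e-07), and by 0.51 with the GC and length offset. MIAT changed by 1.37 ± 0.45 (edgeR adjusted p = 0.04), a call lost without each of the 6 libraries (1.25 to 1.65). LINC01355 (ENSG00000261326, chromosome 1, 23281308 to 23286752) had 12.3, 13.5 and 9.93 CPM with IN10018, against 4.74, 5.39 and 4.82 CPM in control, a change of 1.26 ± 0.13 (edgeR adjusted p = 4.2e-07), and LINC00472 (ENSG00000233237, chromosome 6, 71344344 to 71420769) had 241, 259 and 237 CPM with IN10018, against 161, 154 and 141 CPM in control, a change of 0.70 ± 0.05 (edgeR adjusted p = 2.4e-10). Of 179 LINC genes, 33 rose (18.4%, against 8.34% of all genes tested) and 2 fell (median 0.26). The LINC rises were 15 when control library 1 was left out, 13 for control library 3, 19 for IN10018 library 1 and 16 for IN10018 library 2.

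Of 403 transcripts named as antisense to a gene, 73 rose and 0 fell (18.1% higher against 8.34% of all genes tested; median 0.32). DESeq2 and limma-voom called 0 falls as well, 130 of the 403 having an unadjusted p under 0.05 in either direction, and 1 fall was called with control library 2 or IN10018 library 3 left out and 3 with the GC and length offset. The rises numbered 36 when control library 1 was left out, 33 for control library 3, 43 for IN10018 library 1 and 37 for IN10018 library 2. In 359 pairs with both members tested, the median change was 0.31 for the antisense transcript and -0.03 for the sense gene. Where the antisense transcript rose (65 pairs), 12 sense genes rose, 5 fell and 48 were not called, with a median of -0.00. Over all 359 pairs, 29 sense genes rose, 25 fell and 305 were not called. The share of sense genes that rose was thus larger where the antisense transcript rose. EGFR-AS1 (ENSG00000224057, chromosome 7, 55179750 to 55188934) had 2.89, 2.71 and 2.598 CPM with IN10018, against 1.06, 1.16 and 1.105 CPM in control, a change of 1.29 ± 0.25 (edgeR adjusted p = 0.00099), while EGFR itself had 753, 722 and 768 CPM with IN10018, against 853, 749 and 809.6 CPM in control, overlapping values with a difference of -0.10 ± 0.05 (edgeR adjusted p = 0.17; -0.16 and called without control library 2). TMEM161B-AS1 had 13.6, 14.4 and 11.7 CPM with IN10018, against 6.09, 6.72 and 5.37 CPM in control, a change of 1.14 ± 0.12 (edgeR adjusted p = 6.0e-07). Its sense gene TMEM161B changed by 0.21 ± 0.07 (edgeR adjusted p = 0.047; lost without control library 1, 2 or 3 or IN10018 library 1 or 3, at 0.15 to 0.23 and with the GC and length offset, 0.17, or DESeq2, 0.19). AP006623.1, an antisense RNA on chromosome 11, had 3.13, 4.98 and 3.06 CPM with IN10018, against 0.849, 1.33 and 1.26 CPM in control and the largest rise of the genes that met the naming rule, 1.69 ± 0.25 (edgeR adjusted p = 7.1e-05).

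**Figure D4:**
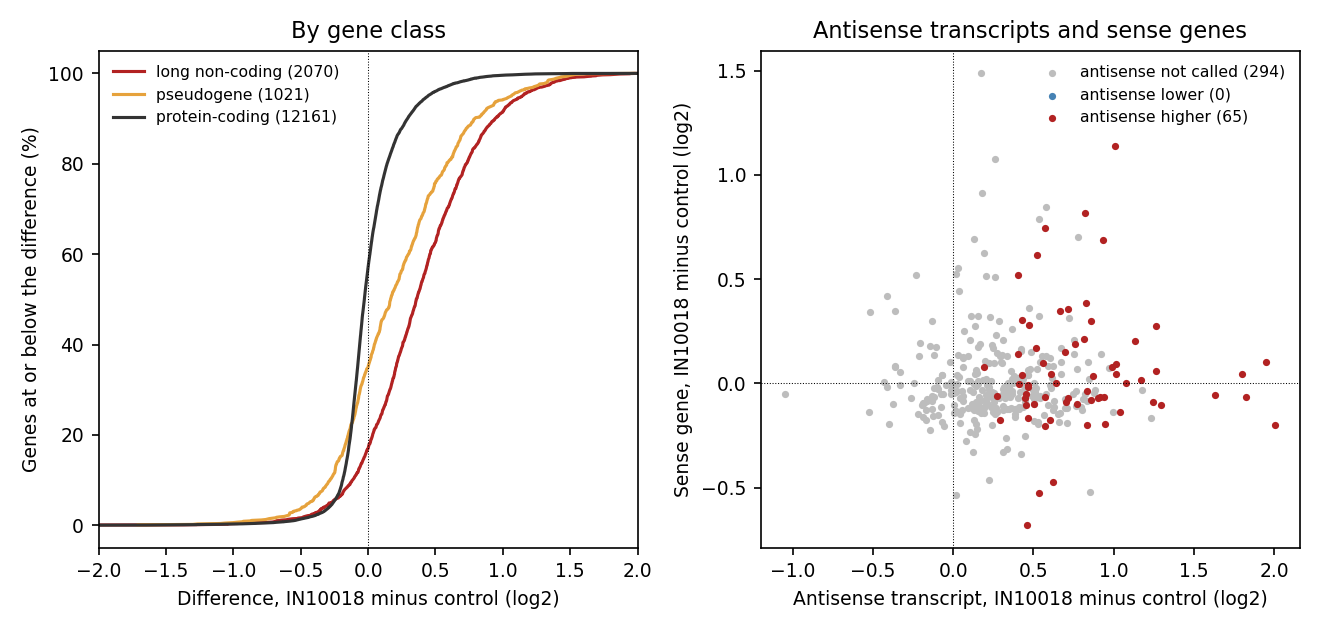
Left, the share of genes (%) at or below each change with IN10018 against control (log2) for long non-coding genes, pseudogenes and protein-coding genes, with the number tested. Right, the change of 359 antisense transcripts (horizontal axis, log2) against that of their sense genes (vertical axis, log2), red where the antisense transcript was called higher. The long non-coding curve lies to the right of the protein-coding curve (medians 0.36 and -0.03), and most red points sit near 0 on the vertical axis.

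Level separated the higher from the lower protein-coding genes more than length or base composition did. The median level was 4.57 log2 CPM for higher, 6.35 log2 CPM for lower and 4.69 log2 CPM for genes not called. With the genes in 4 equal bins from the lowest to the highest mean level, 5.43, 8.13, 7.27 and 3.82% were higher and 1.58, 2.89, 7.83 and 15.95% lower. Weakly expressed genes need a larger change to be called. The gene lists above were not matched for level. Across 12161 protein-coding genes, which are not independent replicates, Spearman's rho of the change was -0.26 with mean level, 0.08 with exon length and 0.00 with GC content. By exon length, 3.03% of the shortest of 4 bins and 8.95% of the longest were higher, while 7.202 and 6.48% were lower.

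The libraries with crizotinib showed where the effect of IN10018 differed once that drug was present. In the fit of all 12 libraries, combination minus crizotinib was set against IN10018 minus control, and 12 of 17096 genes (0.0702%) had a difference between these effects (edgeR quasi-likelihood test, adjusted p under 0.05). All 12 were among the genes lower with IN10018 alone; the IN10018 minus control difference is a part of the interaction, so the 2 measures are not independent. In the combination against crizotinib itself, 0 genes were called higher and 2 lower (0.0117%), with 3697 genes at an unadjusted p under 0.05; DESeq2 called 19 and 5, limma-voom 0 and 2. Crizotinib library 2 stood apart from its group, and without it 2614 were higher and 3026 lower, and 805 genes had a called interaction. The share of mitochondrially encoded reads was 6.99, 4.28 and 6.62% in the combination libraries, 5.21% in crizotinib library 2 and 13.3 and 9.46% in crizotinib libraries 1 and 3. Without crizotinib library 2 the combination and crizotinib groups therefore did not overlap in this share, whose part in the 2614, 3026 and 805 calls was not tested. The interaction calls were 2 to 805 when each of the 12 libraries was left out.

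The 2 genes called lower in the combination than with crizotinib were FOS and FOSB. On the log2 scale their falls were larger with crizotinib present than without it. In CPM the falls were smaller with crizotinib present, where the starting levels were lower. FOS had 9.82, 11.1 and 18.001 CPM in the combination, against 168, 145 and 120.1 CPM with crizotinib alone. The change was -3.48 ± 0.21 (edgeR adjusted p = 1.6e-06), against -1.22 in the same fit for IN10018 alone, and the difference between the effects was -2.26 ± 0.27 (edgeR adjusted p = 0.0054). FOSB had 2.796, 2.92 and 2.39 CPM in the combination, against 24.6, 27.2 and 18.01 CPM with crizotinib alone, a change of -3.11 ± 0.21 (edgeR adjusted p = 3.9e-06) against -1.31 for IN10018 alone, and a difference of -1.80 ± 0.26 (edgeR adjusted p = 0.016). The other 10 genes were not called lower in the combination than with crizotinib. TRIB1 had 44.8, 40.6 and 47.3 CPM in the combination, against 46.8, 36.4 and 48.5 CPM with crizotinib alone, and its difference between the effects was 1.72 ± 0.18 (edgeR adjusted p = 0.0031). NR4A2 had 27.2, 21.9 and 24.4 CPM in the combination, against 23.8, 22.5 and 22.7 CPM with crizotinib alone, a difference of 1.49 ± 0.19 (edgeR adjusted p = 0.0074). ATF3 had 0.714, 0.903 and 0.367 CPM in the combination, against 0.8296, 0.3996 and 0.764 CPM with crizotinib alone, all far below the levels with IN10018 alone or in control, and a difference of 3.01 ± 0.43 (edgeR adjusted p = 0.016). These ATF3 levels are near that of 3 reads (0.178 to 0.219 CPM in these libraries). A further fall with crizotinib present could hardly have been seen, so the ATF3 difference does not tell a lost effect from a floor. For TRIB1, NR4A2 and ATF3, as for FOS and FOSB, the crizotinib libraries lay below the IN10018 libraries. H2AX had 37.8, 52.9 and 52.4 CPM in the combination, against 29.2, 33.1 and 36.2 CPM with crizotinib alone, without overlap and higher in the combination, a difference of 1.5 ± 0.21 (edgeR adjusted p = 0.016). FOS and TRIB1 kept the interaction call when each of the 12 libraries was left out. The FOSB call was lost with limma-voom, and when any IN10018 library or combination library 1 or 3 was left out (-1.99 to -1.68 over all 12). The NR4A2 call was lost for IN10018 library 2 or 3 or crizotinib library 3 (1.34 to 1.56). For ATF3 it was lost with IN10018 library 2 or 3, control library 1 or 2, combination library 1 or 2 or crizotinib library 3 left out (2.71 to 3.26). For H2AX it was lost with any IN10018 library, control library 1 or 2, combination library 3 or crizotinib library 3 left out (1.38 to 1.64).

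**Figure D5:**
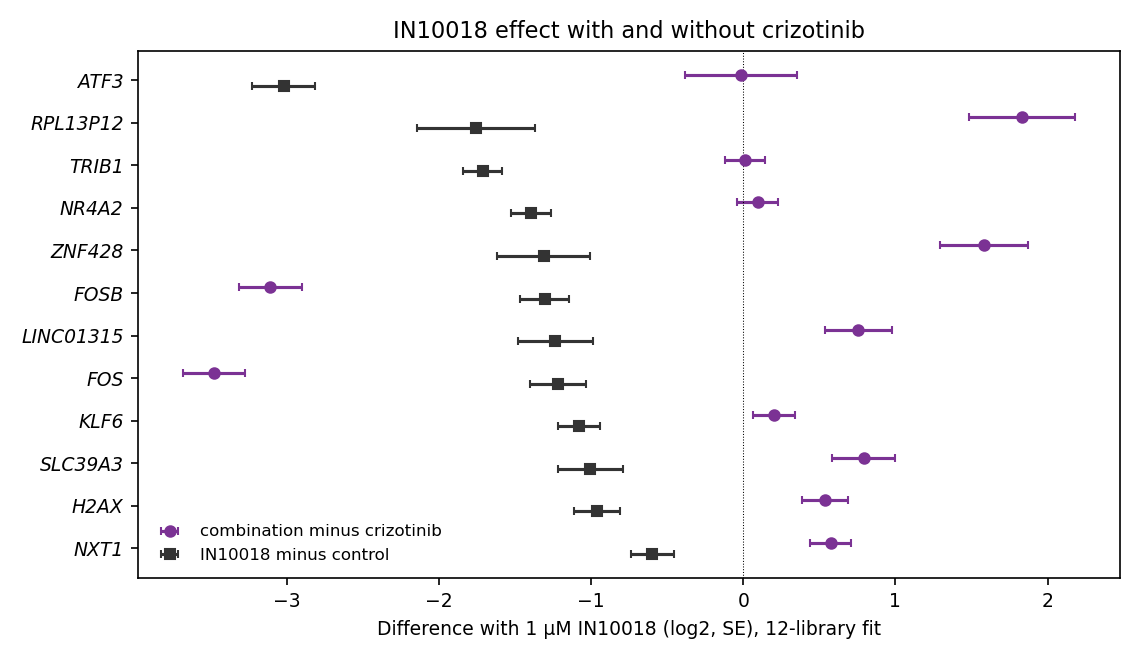
Change with 1 µM IN10018 (log2, horizontal axis, bars are the approximate SE) in the presence of crizotinib (combination minus crizotinib, purple) and without it (IN10018 minus control, black) for the 12 genes whose effects differed, from the fit of 12 libraries with 3 in each group. Every black point lies below 0, while only FOS and FOSB lie clearly below 0 in purple.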

How the data were processed

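RNA was extracted with TRIzol and sequenced after a directional NEBNext library kit, per the labels' protocols. The deposited values are raw read counts per gene, made by the authors with Trimmomatic, HISAT2 and featureCounts on hg38, per the submitters' processing notes, which also name DESeq2; versions and the strand setting of the counting are not given in the sources used here. From those counts, edgeR 4.0.16 (R 4.3.3) was used here with its default low-count filter, TMM scaling and a robust quasi-likelihood test on the 6 libraries alone, with Benjamini-Hochberg adjustment over all 15750 genes tested and a threshold of 0.05. A fit of all 12 libraries gave the interaction with crizotinib. Libraries were grouped by the treatment label. Gene classes and coordinates came from GENCODE 29 (GRCh38), which matched 98.9% of the tested gene IDs. Upstream sequences came from RefSeq (GRCh38.p14), matched by symbol for 9783 of 12158 tested protein-coding symbols. Alternatives were DESeq2 1.42.0, limma-voom (limma 3.58.1), other scalings, filters, a replicate block and leaving out each library. Named genes were the 10 largest changes each way among called genes with a mean log2 CPM of at least 1 and no overlap, overall and among protein-coding genes, the up to 4 members of each list with the smallest p, the title genes and drug targets, and the interaction calls; of the largest changes only a part is printed, and further genes were named after their values were seen. The comparison and the gene lists were chosen with earlier results of these data known. The procedure was tested on simulated data. Some results are not reported here. Limits and intervals cover counting error only.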

Additional observations from a re-analysis of the deposited data

Results flagged for a closer look

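In 12 genes the effect of IN10018 differed with and without crizotinib by edgeR's interaction test (adjusted p under 0.05), given here as the log2 change in the combination against crizotinib minus that with IN10018 against control. The difference was negative for FOS (-2.26) and FOSB (-1.8), which were lower in all 3 combination libraries than in any crizotinib library. It was positive for the other 10 genes. These included ATF3 (3.01), TRIB1 (1.72), NR4A2 (1.49), KLF6 (1.28) and the histone variant gene H2AX (1.5). With crizotinib present, ATF3 lay between 0.367 and 0.903 CPM, too near the floor for a further fall to be seen. The zinc finger gene ZNF428 (2.89) and the ribosomal protein pseudogene RPL13P12 (3.59) were lower with IN10018 alone, while with crizotinib present the changes were 1.58 and 1.83, neither of them called. The export factor gene NXT1 (1.17), the non-coding LINC01315 (1.99) and the zinc transporter gene SLC39A3 (1.8) were not called with scaling to library totals or with limma-voom. When each of the 12 libraries was left out, FOS and TRIB1 were the 2 genes called in every fit.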

How the results depend on the processing

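The 111 called genes that were followed through the alternatives were chosen as called, part of them by a rule that asked for no overlap between the groups. Without overlap, leaving out a library could hardly turn a direction, so the kept direction is not a test. All 111 kept their direction in the 6 fits that left out a library, and 79 kept their call in all 6. DESeq2 kept 104 of these calls, limma-voom 110, scaling to library totals 109, TMM on protein-coding genes 110, the offset for GC content and length 109, the 12-library fit 28 and a test against a 1.5-fold minimum 17. Against 1314 higher genes in the comparison as reported, the 12-library fit called 59 in all, DESeq2 642 and the 1.5-fold minimum 7, and leaving out a library gave 512 to 2008. Against 879 lower genes, the 12-library fit called 27 in all, library totals 480, the offset 2166 and the 1.5-fold minimum 15, and leaving out a library gave 276 to 1517. The 12 interaction calls became 299 without a low-count filter and 63 with DESeq2, and 2 to 805 with a library left out. PTK2 turned to 0.0017 with library totals. TXN turned to -0.021 with 12 libraries, -0.21 with the offset and -0.0088 with DESeq2, and lay between -0.049 and 0.077 with a library left out. Libraries of the same number had r of 0.0071, 0.14 and 0.12 between their deviations, the last 2 above all other pairs and the first not, so the numbers were not taken to pair the libraries; a replicate block called 1648 higher and 1203 lower genes and 23 interactions, with 3226 lower genes and TXN at -0.20 when the offset was added. The causes were not tested. Depth limits weakly expressed genes such as CCN2, and ROS1 was not detectable at this depth.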

Other observations

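Of 28 interferon response and MHC class I genes 2 rose and 1 fell (7.14% and 3.57%, against 8.34% and 5.58% of all genes tested). Of 28 targets of p53, the damage-induced tumour suppressor, 2 rose (7.14%) and 4 fell (14.3% lower, against 5.58% of all genes tested). Of 24 targets of NRF2, the oxidative stress factor, 1 rose, the drug exporter gene ABCC3, and 1 fell. That is 4.17% each way, against 8.34% higher and 5.58% lower of all genes tested. With the offset for GC content and length 7 fell. Receptor tyrosine kinases and their ligands had 1 rise and 6 falls among 27 (22.2% lower, against 5.58% of all genes tested). They had 2 falls when control library 1 or 3 or IN10018 library 1 or 2 was left out. Glycolysis and hypoxia genes had 1 rise and 7 falls among 35, against 8.34% higher and 5.58% lower of all genes tested. They had 1 fall when control library 1 was left out, 0 for control library 3 or IN10018 library 2 and 2 for IN10018 library 1. With the GC and length offset 11 fell. Mitochondrially encoded genes had 4 rises and 1 fall among 36 (11.1% and 2.78%, against 8.34% and 5.58% of all genes tested). Their median of 0.08 turned to -0.13 with the GC and length offset, where 2 rose and 11 fell. Small nucleolar RNA host genes had 5 rises and 1 fall among 28 (17.9% higher, against 8.34% of all genes tested), and 0 to 7 rises when each library was left out.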
